A study of Homo sapiens with 6 samples.

Results

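The insulin-like growth factor (IGF) axis was examined in OE-19 cells as 10 genes, taken from the deposited count table by their symbols. These were the ligand gene *IGF2*, the receptor genes *IGF1R*, *INSR* and *IGF2R*, the substrate genes *IRS1* and *IRS2*, and the binding protein genes *IGFBP2*, *IGFBP3*, *IGFBP4* and *IGFBP6*. Each symbol matched 1 of the 60480 gene identifiers of the table, and all 10 were among the 19778 genes with enough counts to be tested. OE-19 is an established line of adenocarcinoma of the esophagogastric junction (AEG). RNA-seq was done on 3 libraries labelled control knockdown (shControl) and 3 libraries labelled IGF2BP3 knockdown (IGF2BP3 KD), all of the same line in the same medium with 10% serum. The control libraries also carry the name Puro in their descriptions and count columns, which the labels do not explain, and whether both groups were handled alike in this respect is not given in the sources used here. The sources used here do not say whether the 3 IGF2BP3 KD libraries carry the same hairpin or come from separate cultures, so p-values measure the spread between these libraries, which may be technical. The comparison asks how the axis stands in cells in which IGF2BP3, an RNA-binding reader of m6A named for its binding to *IGF2* mRNA, was lowered.

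IGF1, IGF2 and insulin are secreted hormones that bind the tyrosine kinases IGF1R and INSR, which can pair into hybrid receptors. The activated receptors phosphorylate the adaptor proteins IRS1 and IRS2, which pass the signal to PI3K and AKT. IGF2R has no kinase of this kind and carries IGF2 and enzymes tagged with mannose 6-phosphate to lysosomes, and the IGF-binding proteins hold IGFs outside the cell.

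The targeted gene was checked in each library before the axis. *IGF2BP3* (ENSG00000136231, chromosome 7, 23310209 to 23470491 of hg38) was counted 7416, 7363 and 6532 times in control replicates 1 to 3. In IGF2BP3 KD replicates 1 to 3, the order kept below wherever 3 values are given, the counts were 777, 792 and 794. The log2 fold change, always IGF2BP3 KD against control, was -3.03 with a standard error (SE) of 0.06 (edgeR, adjusted p = 3.1e-10). A stretch of 1521 exonic bases is shared with the antisense gene *MALSU1*, and counts there are uncertain. The libraries held 53424071 to 69989087 counts, and mitochondrial genes took 8.67% to 9.06% of them. A count of 3, used as the limit that a count of 0 allows, is 0.0429 to 0.0562 CPM (counts scaled to library size) in these libraries, for counting error only. *KRT8*, *KRT18*, *KRT19*, *EPCAM* and *CDH1*, which mark epithelial cells, were all expressed, and *CDX1* was the only epithelial marker of 10 at 0 in all libraries. Of the 9 tested, 2 were lower (*KRT8* and *KRT18*) and 2 higher (*EPCAM* and *CLDN7*) at an adjusted p under 0.05 (edgeR). This was 44.4% of them, against 20.4% of all tested genes. The summed level, of which *KRT8* had the largest part, was 6600 to 6700 CPM in control and 6560 to 6680 CPM in IGF2BP3 KD libraries.

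In IGF2BP3 KD cells, *IGF2R* and *IGFBP4* were higher, by 21.7% and 22.4%, and none of the 10 genes was called lower. A gene was called where the quasi-likelihood test of edgeR gave an adjusted p under 0.05, with the Benjamini-Hochberg adjustment taken over all tested genes. The 2 calls among 10 genes stand against 20.4% of all tested genes called in either direction, 9.87% higher and 10.6% lower, so the share of called genes in the axis was near the background. At an unadjusted p under 0.05, 3 genes were higher and 1 was lower, and DESeq2 called those same numbers at an adjusted p under 0.05, with *IGF1R* added to the higher genes and *INSR* lower. The 3 IGF2BP3 KD values lay outside the range of the 3 control values in 4 of the 10 genes, against 35.8% of all tested genes. The median log2 fold change was 0.07 for the 10 genes and 0.01 for all tested genes. In bulk RNA, fewer cells of a kind and less RNA per cell cannot be told apart.

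**Figure D1:**
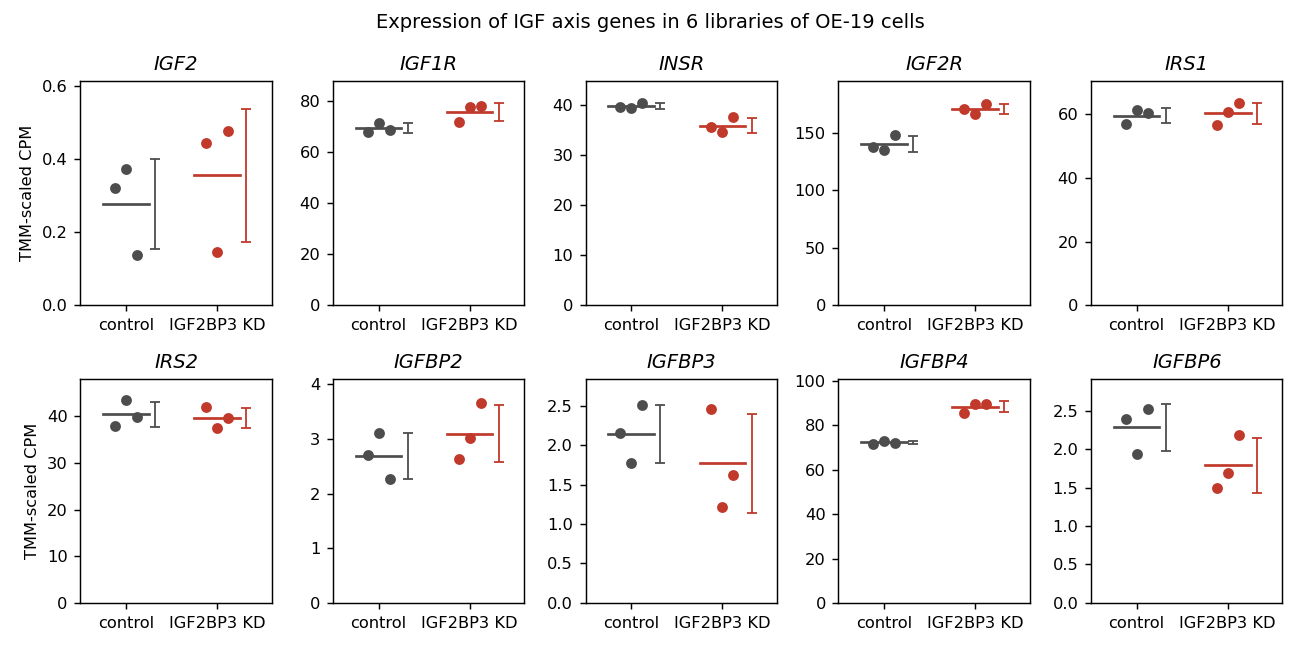
Expression of the 10 IGF axis genes as CPM scaled by edgeR's TMM method, on axes that start at 0, with a point per library, a line at the mean and a bar of 1 SD over 3 libraries (grey, control, red, IGF2BP3 KD). The points of the groups are apart for *IGF1R*, *INSR*, *IGF2R* and *IGFBP4*, and overlap for the other 6 genes.

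Among the ligands, *IGF2* itself had few counts. *IGF2* (ENSG00000167244, minus strand of chromosome 11, 2129112 to 2158391) had 22, 26 and 8 counts in the control libraries, against 24, 9 and 30 after knockdown. This was 0.277 ± 0.124 CPM in control cells and 0.355 ± 0.183 CPM in IGF2BP3 KD cells (SD, n = 3), with each group holding a low library and the ranges overlapping. The log2 fold change was 0.35 with a 95% interval from -0.99 to 1.68, so no change in *IGF2* was detectable in these libraries, and the interval is wide on both sides of 0. *IGF2* shares 2711 exonic bases with a coding gene on its strand (ENSG00000284779), 1460 with the readthrough gene *INS-IGF2* and 333 with *IGF2-AS* on the other strand. All 3 of these were listed at 0 in every library. *IGF2* also shares 373 exonic bases with a non-coding gene on its strand (ENSG00000240801), whose counts are not given here. How reads over shared bases were counted is not given in the sources used here, so the level of *IGF2* is uncertain. *IGF1*, which encodes the other IGF, had 1 count in IGF2BP3 KD replicate 3 and 0 in the other libraries, and *INS*, the insulin gene, was at 0 in all 6. *IGF1* shares 6693 of its 8115 exonic bases with *HELLPAR* on the other strand, and *INS* shares 246 of 656 with *INS-IGF2*. Their levels are therefore uncertain as well. *H19*, the non-coding neighbour imprinted opposite to *IGF2*, had 99, 137 and 145 counts in the control libraries, against 99, 182 and 114 after knockdown. Its log2 fold change was 0.16, with an interval from -0.43 to 0.76, and turned to -0.02 without control replicate 1 and to -0.11 without IGF2BP3 KD replicate 2.

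Of the 3 receptor genes, *IGF2R* was called higher and *IGF1R* and *INSR* were not called by edgeR. *IGF2R* (ENSG00000197081, chromosome 6, 159969082 to 160113507), the mannose 6-phosphate receptor that clears IGF2, had 138, 135 and 148 CPM in control replicates 1, 2 and 3. In IGF2BP3 KD replicates 1, 2 and 3 it had 171, 166 and 175 CPM, so every IGF2BP3 KD library was above every control library. The fitted log2 fold change was 0.28 (SE 0.04, 95% interval 0.20 to 0.37, edgeR adjusted p = 0.00047). *IGF2R* shares 571 exonic bases with the pseudogene *CHP1P2*, which had at most 23 counts in a library, against 8657 or more for *IGF2R*.

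*IGF1R* (ENSG00000140443, chromosome 15, 98648539 to 98964530), the main receptor kinase for IGF1 and IGF2, had 67.7, 71.4 and 68.7 CPM in control replicates 1, 2 and 3. It had 71.7, 77.4 and 78.0 CPM in IGF2BP3 KD replicates 1, 2 and 3, where the lowest IGF2BP3 KD value was just above the highest control value. The log2 fold change was 0.13 (SE 0.05, interval 0.02 to 0.23), and the adjusted p of 0.086 from edgeR's test missed the threshold. DESeq2 called it (adjusted p = 0.044), and so did edgeR without IGF2BP3 KD replicate 1 (adjusted p = 0.049), while the largest adjusted p with a library left out was 0.25.

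*INSR* (ENSG00000171105, minus strand of chromosome 19, 7112255 to 7294414), the insulin receptor, had 39.5, 39.3 and 40.4 CPM in the control libraries, against 35.5, 34.6 and 37.5 CPM after knockdown. All 3 IGF2BP3 KD values were below the control values. The log2 fold change was -0.15 (SE 0.05, interval -0.27 to -0.03), with an adjusted p of 0.085 from edgeR's test and 0.047 from DESeq2. With a library left out, edgeR did not call *INSR*, with an adjusted p between 0.074 and 0.23. *INSRR*, the insulin receptor-related receptor, was at 0 in all libraries.

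**Figure D2:**
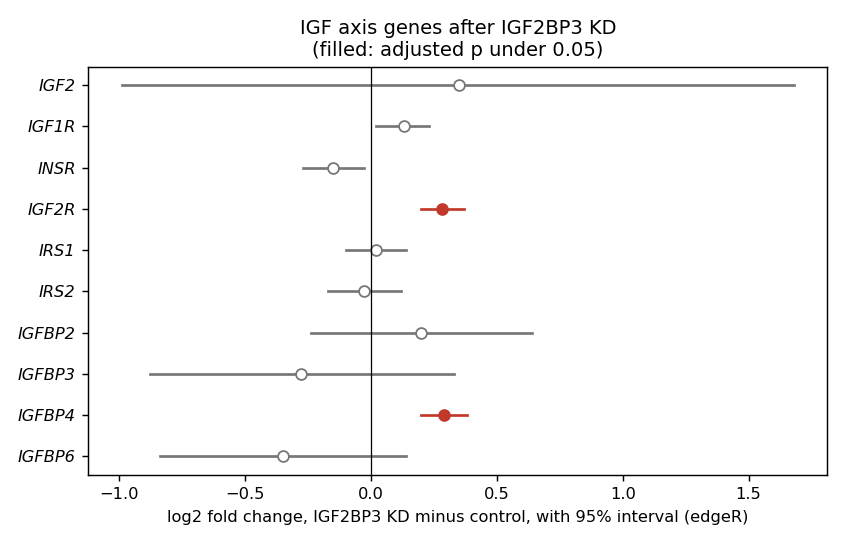
Log2 fold changes of the 10 genes, IGF2BP3 KD against control, as points with lines for the 95% interval derived from edgeR's test, filled where the adjusted p is under 0.05. *IGF2R* at 0.28 and *IGFBP4* at 0.29 are filled, and the line of *IGF2* is the widest.

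Since *IGF1R* and *INSR* encode chains that can assemble together, their proportion was compared within each library, where it does not depend on scaling between libraries. Per kilobase of the canonical transcript, *IGF1R* had 1.33, 1.40 and 1.31 times the counts of *INSR* in control replicates 1, 2 and 3. The ratio was 1.56, 1.73 and 1.61 in IGF2BP3 KD replicates 1, 2 and 3, above all control values. As *IGF1R* was above and *INSR* below all control values in these libraries, this separation and its p follow from the values given above. They are no further support. The log2 ratio was 0.43 ± 0.05 in control and 0.71 ± 0.08 in IGF2BP3 KD cells (SD, n = 3), a difference of 0.275, with a two-sided exact permutation p of 0.1, the smallest that 3 against 3 libraries can give. The same ratio of *IRS1* to *IRS2* was 1.25, 1.18 and 1.27 in the control libraries, against 1.13, 1.35 and 1.34 after knockdown. These ranges overlapped, with a difference of 0.041 on the log2 scale (two-sided exact permutation p = 0.6).

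**Figure D3:**
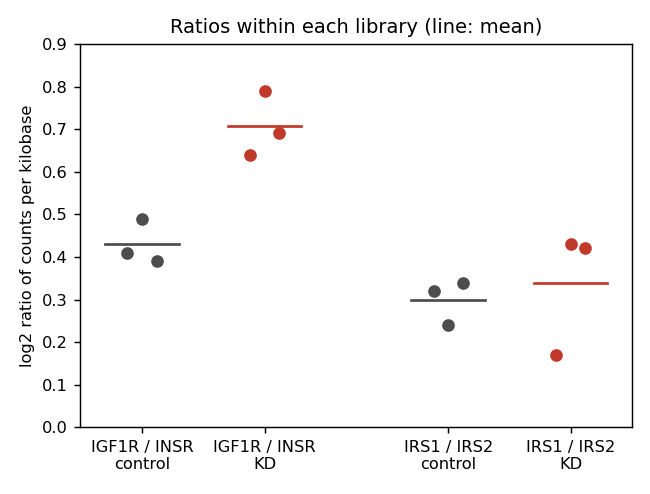
Log2 ratio of counts per kilobase of *IGF1R* to *INSR* and of *IRS1* to *IRS2*, with a point per library and a line at the mean of 3 libraries (grey, control, red, IGF2BP3 KD). The *IGF1R* to *INSR* points of IGF2BP3 KD cells lie above those of control cells, and the *IRS1* to *IRS2* points overlap.

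Neither substrate gene passed the test. *IRS1* (ENSG00000169047, minus strand of chromosome 2, 226731312 to 226799820), a docking protein for PI3K, had 56.9, 61.3 and 60.5 CPM in the control libraries, against 56.7, 60.7 and 63.5 CPM after knockdown. Its log2 fold change was 0.02 with an interval from -0.10 to 0.14, so a change above 0.14 in size lay outside the interval. *IRS2* (ENSG00000185950, minus strand of chromosome 13, 109752695 to 109786583), its relative, had 38.0, 43.4 and 39.9 CPM in the control libraries, against 41.9, 37.6 and 39.6 CPM after knockdown. The fitted log2 fold change was -0.03 with an interval from -0.17 to 0.12, and the groups overlapped for both genes. Either sign turned when a library was left out, to -0.02 for *IRS1* without control replicate 1 or IGF2BP3 KD replicate 3, and to 0.03 and 0.01 for *IRS2* without control replicate 2 or IGF2BP3 KD replicate 2. *IRS2* shares 115 exonic bases with an opposite-strand non-coding gene that was at 0 in all libraries. *IRS4*, the other IRS gene listed, had 1 to 19 counts and was not tested.

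*IGFBP4* was the binding protein gene that rose and by far the most abundant of them. *IGFBP4* (ENSG00000141753, chromosome 17, 40443450 to 40457725), whose product holds IGFs until the protease PAPPA cuts it, had 71.5, 73.2 and 72.3 CPM in control replicates 1, 2 and 3. In IGF2BP3 KD replicates 1, 2 and 3 it had 85.7, 89.9 and 89.9 CPM, with a gap between the groups that was wider than the range within either. Its log2 fold change was 0.29 (SE 0.04, interval 0.20 to 0.38, adjusted p = 0.00040, edgeR), the smallest p of the 10 genes, and no other gene overlaps its exons. Both called genes, *IGF2R* and *IGFBP4*, were called in all 26 alternative fits, counted over both genes, with a largest adjusted p of 0.0047.

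The other binding protein genes had low counts and overlapping groups. *IGFBP2* (ENSG00000115457, chromosome 2, 216632828 to 216664436) had 133 to 217 counts in control libraries and 142 to 231 counts in IGF2BP3 KD libraries, with a log2 fold change of 0.20 and an interval from -0.24 to 0.64. *IGFBP3* (ENSG00000146674, minus strand of chromosome 7, 45912245 to 45921874), the main carrier of IGFs in serum, had 123 to 147 counts in control libraries and 76 to 133 counts in IGF2BP3 KD libraries. The fitted log2 fold change was -0.28, with an interval from -0.88 to 0.33. *IGFBP6* (ENSG00000167779, chromosome 12, 53097436 to 53102345), which prefers IGF2 to IGF1, had 2.39, 1.94 and 2.53 CPM in the control libraries, against 1.5, 1.69 and 2.19 CPM after knockdown. Its log2 fold change of -0.35 had an interval from -0.84 to 0.14 and an adjusted p of 0.34 from edgeR's test, so a fall of this size could not be told from the spread between libraries. *IGFBP1* and *IGFBP5* were at 0 in all libraries, *IGFBP7* had at most 9 counts, and *IGFALS*, which stabilises circulating IGF complexes, had 5 to 25 counts. *IGFBPL1*, a related gene, had 18 to 50 counts. The log2 fold changes of *IGFALS* and *IGFBPL1* were 0.97 and 0.37, with intervals from -0.57 to 2.5 and from -0.76 to 1.49. With a library left out, *IGFALS* lay between 0.59 (without IGF2BP3 KD replicate 1) and 1.51 (without control replicate 2), and *IGFBPL1* between 0.08 (without control replicate 1) and 1.12 (without control replicate 3).

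Levels of different genes were compared only after division by the length of the canonical transcript, as CPM per kilobase. In control cells the order was *IGFBP4* at 32.8 ± 0.391, *IGF2R* at 9.96 ± 0.488, *IRS1* at 6.10 ± 0.240, *IGF1R* at 5.66 ± 0.153, *IRS2* at 4.96 ± 0.335 and *INSR* at 4.2 ± 0.0632 CPM per kilobase (SD, n = 3). The binding protein genes *IGFBP6*, *IGFBP2* and *IGFBP3* followed at 2.41 ± 0.326, 1.91 ± 0.299 and 0.819 ± 0.142, and *IGF2* came last at 0.0496 ± 0.0223. The ranges of *IRS1* and *IGF1R* overlapped, as did those of *IGFBP6* and *IGFBP2*, and the other neighbours in this order did not overlap. In IGF2BP3 KD cells the same 2 pairs overlapped, and their means changed places, with *IGF1R* at 6.19 ± 0.286 and *IRS1* at 6.17 ± 0.350 and with *IGFBP2* at 2.19 ± 0.370 and *IGFBP6* at 1.89 ± 0.375. Of the summed CPM per kilobase of *IGFBP1* to *IGFBP7*, *IGFBP4* took 86.0% to 86.9% in control libraries and 88.1% to 90.3% in IGF2BP3 KD libraries. The share of *IGFBP6* was 5.35% to 7.02% and 3.66% to 5.0%, without overlap of the groups, and that of *IGFBP2* was 4.22% to 5.76% and 4.3% to 5.6%. These shares also depend on *IGFBP4*, which makes up most of the sum and rose. The CPM of *IGFBP6* itself overlapped between the groups and was not called (edgeR adjusted p = 0.34).

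**Figure D4:**
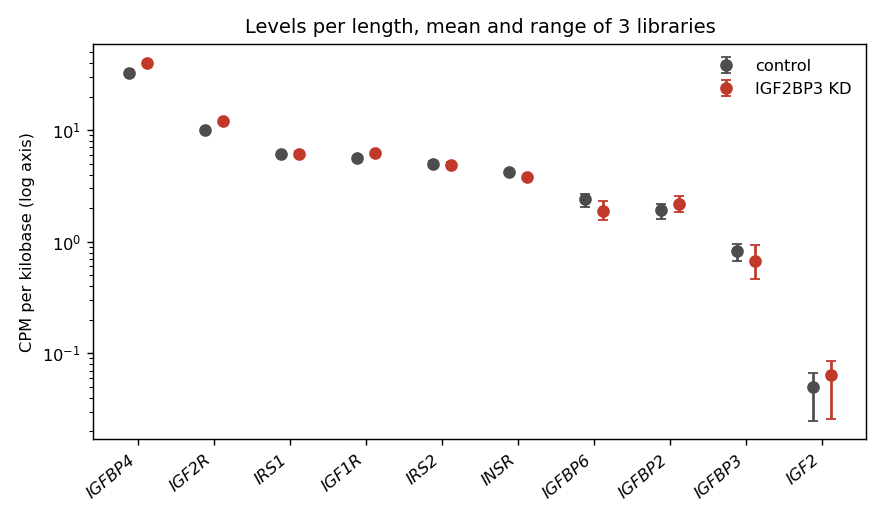
Mean CPM per kilobase of the canonical transcript on a log axis for the 10 genes, ordered by their level in control cells (grey, control, red, IGF2BP3 KD), with bars for the range of 3 libraries. *IGFBP4* is highest and *IGF2* lowest in both groups.

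The gene whose 6 values lay closest to those of *IGFBP4* was *DGCR2*, followed by *ASS1* and *NAV2*. Likeness was the root mean square difference of log2 CPM over the 6 libraries, each gene centred on its control mean, among the 12165 coding genes that averaged 1 CPM or more. The differences were 0.0113, 0.0114 and 0.0161, and the log2 fold changes of these genes were 0.29, 0.30 and 0.28. These fold changes are near that of *IGFBP4* because the genes were picked for this likeness, and shared regulation was not tested.

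Of 7-base words in 3′ UTRs, GATTACT marks genes that were called lower more often in these libraries and ACACATC genes that were called higher more often. Both words were picked out on the same libraries, so they are a description here. Among 13747 tested coding genes with a 3′ UTR of at least 50 bases, 35.1% of those with GATTACT were called lower, against 12.7% of those without it. The words were searched on the transcript strand, and 6.962% of all 19117 3′ UTRs hold GATTACT and 9.165% hold ACACATC. With ACACATC, 28.0% were called higher, against 11.5% without it. Genes with and without a word were not matched for 3′ UTR length or level, and longer 3′ UTRs held these words more often. In the canonical transcripts of GENCODE v44, 2 of the 10 genes hold GATTACT, *IGF1R* and *IRS2*, and *IGF1R* also holds ACACATC. *IGF1R* has a 3′ UTR of 7088 bases, and 27.4% of 3′ UTRs of similar length (0.8 to 1.25 times) hold GATTACT and 30.01% hold ACACATC. That of *IRS2* has 3609 bases, and 14.1% of 3′ UTRs of similar length hold GATTACT. These sites are shown because neither gene was called, in DNA letters 5′ to 3′ of the transcript strand of hg38, with the word in capitals and 10 bases on each side. The 4 sites of *IGF1R* lie in exon 21 of 21, the plus strand at chr15:98959250-98959276, chr15:98963705-98963731, chr15:98958622-98958648 and chr15:98964002-98964028 in the order of the lines, and that of *IRS2* lies in exon 2 of 2 on the minus strand at chr13:109755598-109755624.
IGF1R, GATTACT: taggcatttgGATTACTatttttctta
IGF1R, GATTACT: tatcatgactGATTACTgctttgttag
IGF1R, ACACATC: acatttgcatACACATCgtctttaatg
IGF1R, ACACATC: cgttgcacacACACATCcaccggtgga
IRS2, GATTACT: tttgaagacgGATTACTaaataataat

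Beside these 10 genes, 99 related genes were listed by role, of which 81 were tested. Of these, 12 were lower and 12 were higher, 29.6% against 20.4% of all tested genes, and their median log2 fold change was 0.01, as for all tested genes. The remaining 57 did not pass the test. Lists were written with earlier results of these data known, and nothing is called particular to them.

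In the family that gives the target its name, *IGF2BP2* (ENSG00000073792), a paralog that also binds m6A-modified mRNA, rose from 13.6, 11.9 and 11.4 CPM in control replicates to 18.1, 18.0 and 17.3 CPM in IGF2BP3 KD replicates. All IGF2BP3 KD values were above the control values, giving a log2 fold change of 0.54 (SE 0.09, adjusted p = 0.0011, edgeR). *IGF2BP1*, the third paralog, had 9 to 27 counts in control libraries and 2 to 20 counts in IGF2BP3 KD libraries, a log2 fold change of -0.77 with an interval from -2.51 to 0.97. It lay between -1.87 (without IGF2BP3 KD replicate 3) and -0.29 (without IGF2BP3 KD replicate 2) with a library left out.

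Of the 7 tested proteases of binding proteins and their inhibitors, *STC2* was lower and *CTSD* was higher, 28.6% against 20.4% of all tested genes. *STC2* (ENSG00000113739), a secreted inhibitor of the protease PAPPA, had 73.0 ± 2.47 CPM in control and 52.0 ± 1.80 CPM in IGF2BP3 KD cells (SD, n = 3), or -0.49 as log2 fold change (SE 0.05, adjusted p = 3.7e-05, edgeR). *PAPPA*, which cuts IGFBP4, had 15 to 29 counts in control libraries and 4 to 46 counts in IGF2BP3 KD libraries, and overlaps the antisense gene *PAPPA-AS1*. *PAPPA2*, which cuts IGFBP3 and IGFBP5, had 37 to 56 and 27 to 54 counts in the groups. *STC1* and *HTRA1* were at 0 in all libraries. *CTSD* (ENSG00000117984), the lysosomal protease cathepsin D and a cargo of IGF2R, had 992 ± 20.5 CPM in control and 1190 ± 25.1 CPM in IGF2BP3 KD cells, or 0.26 as log2 fold change (SE 0.02), but it overlaps exons of genes on both strands.

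Of 23 listed adaptors at the receptors other than *IRS1* and *IRS2*, 21 were tested, 5 were lower and 3 were higher. The called share was 38.1%, against 20.4% of all tested genes. *PTPN11* (ENSG00000179295), the phosphatase SHP2 that binds IRS proteins, went from 408 ± 13.4 to 311 ± 4.28 CPM (log2 fold change -0.39, SE 0.03). *CRKL* (ENSG00000099942), an SH2 and SH3 adaptor, went from 153 ± 4.42 to 126 ± 6.44 CPM (-0.27, SE 0.04), and *GRB2* (ENSG00000177885), which links receptors to SOS and RAS, rose from 127 ± 1.96 to 150 ± 7.65 CPM (0.24, SE 0.04).

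Of 21 tested genes of negative feedback and FOXO factors, 4 were lower and 1 was higher. The called share was 23.8%, near the 20.4% of all tested genes, and the 3 with the smallest p were all lower. *PTPN1* (ENSG00000196396), the phosphatase PTP1B that dephosphorylates INSR and IGF1R, had 64.1, 67.6 and 68.7 CPM in the control libraries, against 45.0, 43.1 and 42.0 CPM after knockdown. The fitted log2 fold change was -0.62 (SE 0.05, adjusted p = 9.2e-06, edgeR). *PTPN2* (ENSG00000175354), the closely related phosphatase TC-PTP, had 110 ± 4.84 CPM in control and 77.0 ± 1.92 CPM in IGF2BP3 KD cells, or -0.52 as log2 fold change (SE 0.04). *NEDD4* (ENSG00000069869), a ubiquitin ligase for IGF1R among other proteins, had 59.0 ± 2.24 CPM in control and 37.7 ± 2.31 CPM in IGF2BP3 KD cells, or -0.65 as log2 fold change (SE 0.06). No IGF2BP3 KD value of these 3 genes reached a control value.

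Of 8 tested genes of receptor and ligand maturation, *IDE* was lower and *PCSK5* and *PCSK7* were higher, 37.5% against 20.4% of all tested genes. *IDE* (ENSG00000119912), the protease that degrades insulin and can cut IGF2, had 72.3, 65.6 and 72.3 CPM in the control libraries, against 38.1, 41.1 and 39.5 CPM after knockdown. Its fall, a log2 fold change of -0.82 (SE 0.06, adjusted p = 2.4e-06, edgeR), was the largest among the called genes of these lists. *PCSK5* and *PCSK7*, proprotein convertases of the furin family, had log2 fold changes of 0.37 (SE 0.07) and 0.21 (SE 0.04), and *PCSK7* overlaps exons of *TAGLN* on the other strand. *FURIN*, which cleaves the precursors of IGF1R and INSR, had a log2 fold change of -0.04 with an interval from -0.13 to 0.04.

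Of 19 tested genes of mannose 6-phosphate sorting other than *IGF2R*, 1 was lower and 4 were higher, 26.3% against 20.4% of all tested genes. *M6PR* (ENSG00000003056), the other mannose 6-phosphate receptor, had 133 ± 3.67 CPM in control and 154 ± 5.35 CPM in IGF2BP3 KD cells, or 0.22 as log2 fold change (SE 0.04, adjusted p = 0.0017, edgeR), beside 0.28 for *IGF2R*. It overlaps 1107 exonic bases of *PHC1* on the other strand. *AP1S1*, a subunit of the AP-1 clathrin adaptor, and *SNX1*, a sorting nexin of the retrieval route from endosomes, had log2 fold changes of 0.26 (SE 0.04) and 0.16 (SE 0.03). The remaining higher gene, *NAGPA*, whose enzyme uncovers the mannose 6-phosphate tag, is named after its values were seen and had 8.4, 9.83 and 11.5 CPM in control against 14.1, 12.1 and 14.4 CPM in IGF2BP3 KD libraries (log2 fold change 0.45, edgeR adjusted p = 0.023). Its call was lost without control replicate 1 or 2 or without IGF2BP3 KD replicate 1 or 3 (edgeR adjusted p of 0.076, 0.081, 0.09 and 0.094) and with no filter on low counts (0.069).

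**Figure D5:**
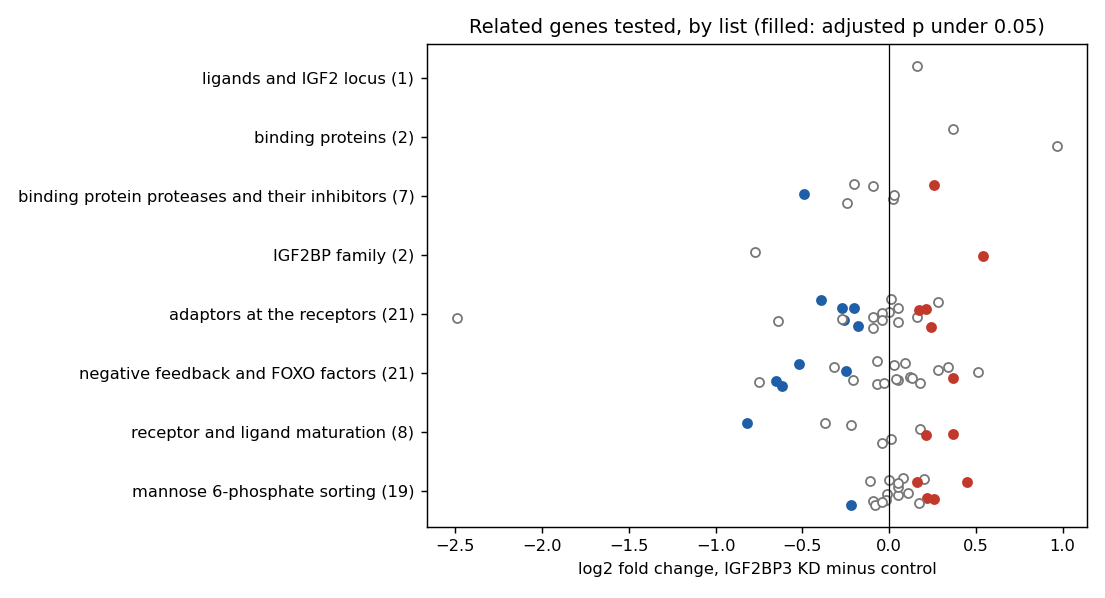
Log2 fold changes of the tested related genes, IGF2BP3 KD against control, with a row for each list and the number of genes tested in parentheses, filled red where called higher and blue where called lower. *IDE* at -0.82 is the lowest filled point, and the open point at -2.49 is *GRB14*, which had at most 39 counts in a library.

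Among the 79 tested related genes with a 3′ UTR, 11 hold GATTACT, of which 5 were lower, 2 were higher and 4 were not called (*PAPPA*, *FOXO1*, *AP1M1* and *VPS35*). The 5 lower genes are *PTPN1*, *IDE*, *CRKL*, *GAB1* and *SOS1*, of 12 related genes called lower, against 376 of 1990 coding genes called lower in all. The other lower genes of the 12, *STC2*, *PTPN11*, *PTPN2*, *NEDD4*, *GRB10*, *TRIB3* and *GGA3*, do not hold it. The higher genes that hold it are *M6PR* and *PCSK5*. ACACATC is also in 11 of the 79, and here 3 were lower (*GRB10*, *GAB1* and *TRIB3*), 2 were higher (*PIK3R1* and *SNX1*) and 6 were not called. These counts are too few to say whether either word went with calls in its direction among the related genes. Both words were picked out on the same libraries, so the lower genes that hold GATTACT are no support for it. Of these, *GAB1* was only just called (edgeR adjusted p = 0.049). The sites of *PTPN1* and *IDE*, whose mRNAs fell, and of *M6PR*, whose mRNA rose, are given as above, and those of the other related genes are not shown. Of 3′ UTRs of similar length to those of *PTPN1*, *IDE* and *M6PR*, 10.1%, 10.7% and 5.4% hold GATTACT. The sites shown lie on chr20:50583409-50583435 (plus strand, exon 10 of 10), chr10:92454194-92454220 and chr10:92453751-92453777 (minus strand, exon 25 of 25) and chr12:8941301-8941327 (minus strand, exon 7 of 7).
PTPN1, GATTACT: catgatgtgaGATTACTttgtcccgct
IDE, GATTACT: tttttcttttGATTACTgagagaaatt
IDE, GATTACT: aatttctcagGATTACTgtggtttctt
M6PR, GATTACT: actttgcagtGATTACTtggttgcagt

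Markers of other cell types were listed as a check, since fibroblasts express several genes of this axis. Of 10 fibroblast markers, *COL1A1* was called higher, with a log2 fold change of 0.50, and *COL1A2* and *LUM* were at 0 in all libraries, while *COL3A1*, *PDGFRA*, *THY1*, *FAP* and *ACTA2* had at most 11 counts. The summed level of the list was 21.3 to 24.7 CPM in control libraries and higher in every IGF2BP3 KD library, up to 34.4 CPM, nearly all from *COL1A1*. All 5 endothelial markers had too few counts for a test. Of 6 leukocyte markers, *CD68*, a lysosomal membrane protein, was higher at a log2 fold change of 0.54, *CD3E* was at 0, and *PTPRC* had at most 8 counts, with a summed level of 2510 to 2730 and 2540 to 2620 CPM that was almost all *LYZ*. *CD68* shares 1765 of its 2163 exonic bases with a non-coding gene on its strand, so its counts are uncertain. The 4 adipocyte and 5 hepatocyte markers summed to at most 1.01 and 1.56 CPM, and none was called by edgeR. The part of *COL1A1* and *CD68* in the results above was not tested.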

How the data were processed

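Per the labels and the study's methods, the authors isolated poly(A) RNA, prepared libraries with a directional kit and sequenced paired reads. According to the submitters' processing notes, fastp, HISAT2, featureCounts and hg38 were used. The deposited values are raw counts of reads per gene, one column per library, matched to samples by name. The annotation release and strand setting are not given in the sources used here. Of the table's entries, 132 repeats of 44 identifiers were left out (the entry listed before the others was kept).

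Counts were scaled with TMM, filtered with filterByExpr (minimum count 10, minimum total 15) and tested with edgeR 4.0.16 (glmQLFit, glmQLFTest, no block) in R 4.3.3 over 19778 genes, with Benjamini-Hochberg adjustment, as tested on simulated data. The square root of the common dispersion was 0.148. Alternatives were DESeq2 1.42.0, RLE scaling, other filters, the replicate block, GC offsets (lowess span 0.3), leaving out each library and a threshold of 0.01. Python 3.11.15 was used for the ratios (exact permutation over the 6 libraries, two-sided). GENCODE v44 (hg38) gave positions, exon overlaps, canonical transcripts and 3′ UTRs, and held 99.97% of the genes tested.

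The named genes were the 10 members, *IGF2BP3*, the measured genes of the lists of ligands, receptors, binding proteins and the IGF2BP family, the 3 called genes with the smallest p of each other list, and the 3 genes most like the member with the smallest p. Other genes are named after their values were seen. Members and lists were chosen with earlier results of these data known. Same-numbered libraries did not deviate together (correlations of deviations from group means between -0.0924 and -0.0295), so the numbers were not taken as pairs.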

Additional observations from a re-analysis of the deposited data

How the results depend on the processing

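The 10 genes kept the same direction and side of the threshold under most alternatives. With DESeq2, 1 of the 10 genes was lower, *INSR* at -0.15, and *IGF1R* was called at 0.12. Leaving out each library in turn, the log2 fold change of *IGF1R* lay between 0.10 and 0.16, that of *INSR* between -0.18 and -0.12, of *IRS1* between -0.02 and 0.06, of *IRS2* between -0.07 and 0.03, and of *H19* between -0.11 and 0.36. The difference in the log2 ratio of *IRS1* to *IRS2* lay between -0.004 and 0.124, and that of *IGF1R* to *INSR* between 0.233 and 0.307. The log2 fold change of *IGF2* lay between 0.03 and 0.72, of *IGFBP2* between 0.06 and 0.32, of *IGFBP3* between -0.59 and -0.07, and of *IGFBP6* between -0.52 and -0.24. The cause was not tested. With the adjusted p under 0.01, 1314 genes were lower and 1098 higher of all tested, against 2088 and 1953. With the replicate number as a block, 2026 and 1875 genes were lower and higher, *IGF2R* had a log2 fold change of 0.28 and *IGFBP4* of 0.29, 2 of the 10 genes were called, and 12 related genes were lower and 15 higher. *NAGPA* lost its call when control replicate 1 or 2 or IGF2BP3 KD replicate 1 or 3 was left out and with no filter on low counts (0.34, 0.44, 0.41, 0.40 and 0.44). *IGF2* had no value with at least 10 counts in every library. Low counts and the spread between libraries both bear on *IGF2* and on the binding protein genes other than *IGFBP4*, and their parts were not separated.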

Other observations

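Further genes of the pathway were looked at after their values were seen. *FOXO4* (ENSG00000184481), a forkhead factor that AKT holds out of the nucleus, had 23.7 ± 1.01 CPM in control and 30.6 ± 1.28 CPM in IGF2BP3 KD cells (SD, n = 3), or 0.37 as log2 fold change (SE 0.06, adjusted p = 0.0016, edgeR), while *FOXO1* and *FOXO3* had 0.18 and 0.13 with adjusted p of 0.16 and 0.052. *TRIB3* (ENSG00000101255), a pseudokinase that binds AKT, had 152 ± 0.882 CPM in control and 128 ± 0.984 CPM in IGF2BP3 KD cells, or -0.25 as log2 fold change (SE 0.03). *GRB10* (ENSG00000106070), an adaptor that inhibits INSR and IGF1R, had 104 ± 3.45 CPM in control and 90.7 ± 0.989 CPM in IGF2BP3 KD cells, or -0.20 as log2 fold change (SE 0.04).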
